A study of Bos taurus with 15 samples.

Results

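Fibroblast growth factor (FGF) and hepatocyte growth factor signalling was followed here through 10 genes: the ligands FGF2, FGF7, FGF9, FGF10 and HGF, and the receptors FGFR1, FGFR2, FGFR3, FGFR4 and MET. They were taken by gene symbol from a table of 32671 gene entries. All 10 were present, and all 10 passed the filter on low counts that left 19962 genes. The tissue was endometrium, the lining of the uterus, of beef heifers (Bos taurus), taken with biopsy forceps on day 14 of pregnancy. The labels divide the animals into Infertile (5 heifers), Sub-fertile (5 heifers) and High-fertile (5 heifers). All 3 classes had the same treatment: estrus was synchronised with prostaglandin, GnRH, estradiol and progesterone, an in vivo-produced embryo was transferred on day 7, and the uterus was flushed before the biopsy was cut from the horn on the side of the corpus luteum. Each library came from 1 heifer, and the spread among libraries of a class is therefore a spread among animals. The sources used here give neither the rule by which heifers were classed, nor their ages, nor what the flush recovered.

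Fibroblast growth factors bind receptor tyrosine kinases together with heparan sulfate of the cell surface. In the uterus, FGF7 and FGF10 are made by connective tissue cells and act on the epithelial splice form of FGFR2, so they carry signals from stroma to epithelium, and in ruminants FGF10 has been described as a progesterone-responsive stromal factor. FGF2 is a broadly acting mitogen and angiogenic factor stored on the matrix, and FGF9 is a mitogen of stromal cells. HGF, or scatter factor, is likewise made by mesenchymal cells and acts through its receptor MET, which epithelial cells carry. Splice forms cannot be separated in these data, since the table holds 1 count per gene.

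Libraries held 38017136 to 62858724 counts. Values are given as CPM (read counts scaled to library depth with TMM factors). To compare genes with each other, the deposited FPKM (fragments per kilobase of gene, scaled to library depth) are used. Epithelial, stromal, smooth muscle, endothelial and leukocyte markers were all detected in every library, and at most 1 of 8 ciliated cell markers was at 0. Smooth muscle markers varied the most between biopsies. Their summed level was 645 to 26520 CPM in Infertile, 738 to 6523 CPM in Sub-fertile heifers and 1031 to 12910 CPM in High-fertile libraries. The labels name no batch. Clustered on counts of 372 pseudogenes and ribosomal RNA genes, with the number of sets fixed at 3, the libraries fell into sets of 8, 5 and 2. High-fertile replicate 1 and Infertile replicate 2 formed the set of 2, and Sub-fertile replicates 1, 2 and 5 with Infertile replicates 3 and 5 the set of 5. The 5-library set held no High-fertile heifer, and class and set therefore cannot be fully told apart. Infertile replicate 2 also stood apart on the first principal component (-120, against -70.0 to 74.2 in the other 14 libraries).

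Per unit length, MET was the most abundant of the 10 genes, with a median of 39.8 FPKM over the 15 libraries, above 89.6% of the genes tested. FGFR2 (12.03 FPKM), FGF9 (11.02 FPKM), FGF2 (7.28 FPKM), FGFR1 (7.20 FPKM) and FGF10 (6.47 FPKM) followed. HGF (2.10 FPKM), FGFR3 (1.08 FPKM), FGF7 (0.51 FPKM) and FGFR4 (0.13 FPKM) were the lowest. Neighbours in the middle of this order were not separated: FGFR2 exceeded FGF9 in 8 of 15 libraries, FGF2 exceeded FGFR1 in 6 and FGFR1 exceeded FGF10 in 9. FGF10 exceeded HGF in 15 of 15 and MET exceeded FGFR2 in 13 of 15. The FPKM values imply gene lengths of only 0.376 kb for FGF9 and 0.394 kb for FGF10, against 2.15 to 6.64 kb for the other 8 genes, and short models raise the FPKM of both ligands for a given count.

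None of the 10 genes passed the test between fertility classes, given the spread between heifers. In the edgeR quasi-likelihood test 0 of 10 passed an adjusted p of 0.05 in any of the 3 comparisons (smallest adjusted p = 0.36), and 0 passed with DESeq2, which gave FGFR4 no p, or limma-voom. The edgeR test called 0% of the 19962 genes in each comparison. DESeq2 called 34 genes for Infertile against High-fertile, 18 for Sub-fertile against High-fertile and 11 for Infertile against Sub-fertile, none of them among the 10. At an unadjusted p under 0.05 edgeR called 1 of the 10 genes for Infertile against High-fertile (11% of all genes), 0 of 10 for Sub-fertile against High-fertile (13.7% of all genes) and 1 of 10 for Infertile against Sub-fertile (2.63% of all genes). That 1 gene was FGFR4 both times, in comparisons that share the Infertile libraries. For 0 of the 10 genes were any 2 classes free of overlap. Of all genes 2.22% were for Infertile against High-fertile, 5.07% for Sub-fertile against High-fertile and 0.205% for Infertile against Sub-fertile. Tested for any difference over all 3 classes at once, the 10 genes had adjusted p from 0.55 (FGFR4) to 0.943 (FGF9). FGFR4 alone was at an unadjusted p under 0.05 there, 1 of 10, as were 8.42% of all genes.

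**Figure D1:**
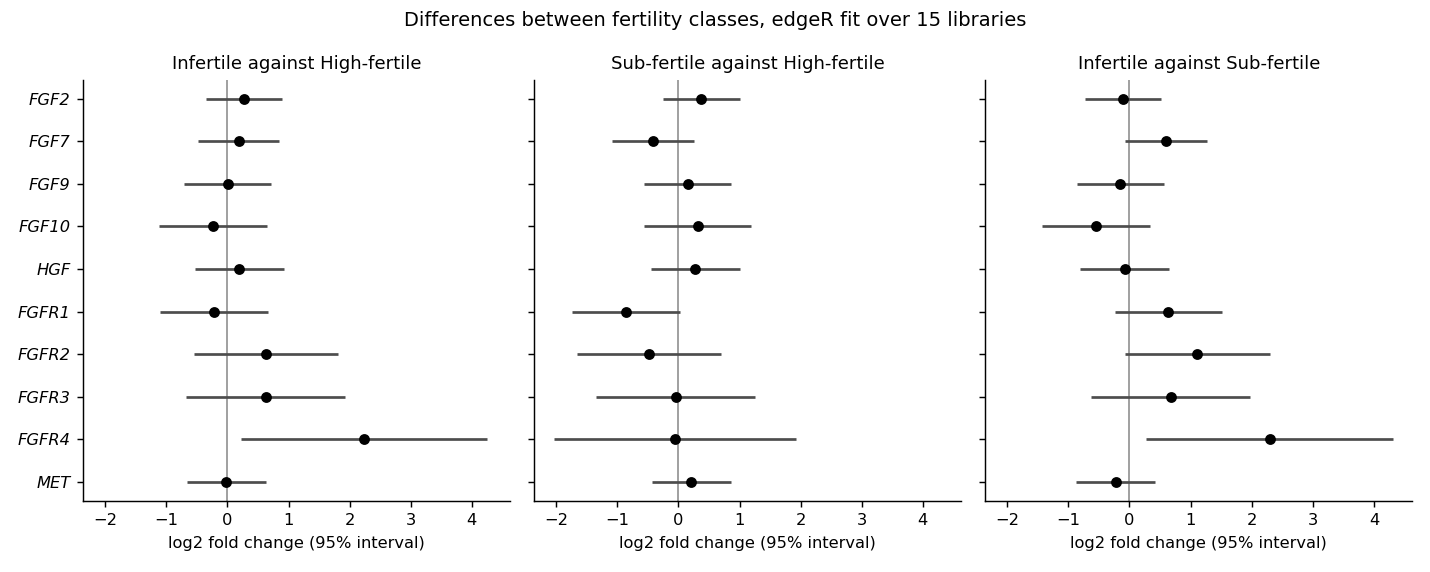
Log2 fold changes (x axis) of the 10 genes (rows, ligands above receptors) in the 3 comparisons, from the edgeR fit over 15 libraries; points are estimates and lines 95% intervals. The intervals of FGFR4 in both comparisons of Infertile heifers lie above 0 before adjustment, at 0.23 to 4.24 against High-fertile and 0.27 to 4.31 against Sub-fertile heifers, and all others reach 0.

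FGF7, or keratinocyte growth factor, was the scarcest ligand. It had 0.857, 0.979, 1.20, 1.33 and 1.93 CPM in Infertile heifers, 0.455, 0.470, 0.983, 1.11 and 1.12 CPM in Sub-fertile heifers, and 0.976, 0.989, 1.11, 1.23 and 1.23 CPM in High-fertile heifers. High-fertile heifers were tightly grouped, and Sub-fertile replicates 1 and 3 lay below all other libraries. The log2 fold change was -0.42 ± 0.316 (SE) for Sub-fertile against High-fertile (95% interval -1.09 to 0.26; edgeR adjusted p = 0.488) and 0.18 ± 0.314 for Infertile against High-fertile (-0.49 to 0.85). Infertile exceeded Sub-fertile heifers by 0.60 ± 0.316 (95% interval -0.07 to 1.27; edgeR adjusted p = 0.998). Only 18 to 92 reads lay behind each value, and a count of 18 has an exact Poisson 95% interval of 10.67 to 28.45, which covers counting error alone. In the annotation of another assembly (ARS-UCD2.0), FGF7 overlaps FAM227B, which had 19 to 42 counts. Reads in any stretch that both genes share can be told apart only by strand.

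FGF10, its close relative and a signal to the same receptor, was at 1.65, 1.66, 2.38, 2.54 and 2.69 CPM in Infertile heifers, 1.52, 1.79, 2.57, 2.83 and 7.34 CPM in Sub-fertile heifers, and 1.46, 1.65, 2.65, 3.03 and 4.09 CPM in High-fertile heifers. The 3 classes overlapped almost fully, apart from Sub-fertile replicate 1. That heifer had the most FGF10 and the second-lowest FGF7. The log2 fold change was 0.31 ± 0.412 for Sub-fertile against High-fertile, and -0.24 without Sub-fertile replicate 1. It was -0.24 ± 0.413 for Infertile against High-fertile and -0.55 ± 0.414 for Infertile against Sub-fertile.

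FGF2 was at 33.0, 44.3, 50.0, 52.5 and 76.8 CPM in Infertile heifers, 29.6, 30.8, 61.1, 61.7 and 92.1 CPM in Sub-fertile heifers, and 34.1, 36.5, 43.7, 48.4 and 49.5 CPM in High-fertile heifers. The Sub-fertile class held both the highest and the lowest libraries of the study. Means of FGF2 were 51.3 ± 16.1 CPM (SD, n = 5) in Infertile, 55.1 ± 25.9 CPM in Sub-fertile heifers and 42.4 ± 6.91 CPM in High-fertile heifers. The log2 fold changes against High-fertile heifers were 0.28 ± 0.292 for Infertile and 0.38 ± 0.292 for Sub-fertile (edgeR adjusted p = 0.695 and 0.498). With the library set as a covariate they were -0.08 and -0.05. FGF2 overlaps NUDT6 in the ARS-UCD2.0 annotation, and NUDT6 was at 3.08 to 5.22 CPM, well under FGF2.

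FGF9 had 2.22, 4.08, 4.19, 5.03 and 5.59 CPM in Infertile heifers, 2.55, 3.08, 3.27, 5.87 and 8.62 CPM in Sub-fertile heifers, and 3.18, 4.11, 4.13, 4.65 and 5.02 CPM in High-fertile heifers. Of the Sub-fertile heifers, 2 lay below, 1 within and 2 above the High-fertile range, and the classes overlapped. The log2 fold changes were 0.00 ± 0.333 for Infertile and 0.15 ± 0.333 for Sub-fertile against High-fertile heifers. The 95% interval of the first was -0.71 to 0.71, so differences of that size in either direction are compatible with these libraries.

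HGF, the ligand of MET, was at 8.29, 13.5, 13.7, 14.8 and 30.1 CPM in Infertile heifers, 9.35, 12.6, 14.7, 19.96 and 28.4 CPM in Sub-fertile heifers, and 10.1, 12.9, 13.0, 13.9 and 20.3 CPM in High-fertile heifers. Libraries of every class lay between 12.6 and 14.8 CPM, and the highest values belonged to Infertile replicate 2 and Sub-fertile replicate 1. The log2 fold change was 0.20 ± 0.339 for Infertile and 0.28 ± 0.339 for Sub-fertile against High-fertile heifers (edgeR adjusted p = 0.822 and 0.673). Without Infertile replicate 2 the first was -0.16, and without Sub-fertile replicate 1 the second was 0.01.

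MET, the HGF receptor, was at 78.6, 111, 188, 233 and 293 CPM in Infertile heifers, 131, 181, 208, 251 and 287 CPM in Sub-fertile heifers, and 153, 167, 169, 194 and 231 CPM in High-fertile heifers. Infertile heifers spanned a range that enclosed the whole High-fertile range, and the classes overlapped. Means were 181 ± 87.6 CPM (SD, n = 5) in Infertile, 211 ± 60.6 CPM in Sub-fertile heifers and 183 ± 30.7 CPM in High-fertile heifers. The log2 fold changes were -0.02 ± 0.303 for Infertile against High-fertile and 0.21 ± 0.303 for Sub-fertile against High-fertile, with a 95% interval of -0.44 to 0.86 for the second.

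FGFR1, the FGF receptor most typical of mesenchymal cells, came nearest to a difference between Sub-fertile and High-fertile heifers. It was at 11.6, 18.0, 23.3, 45.0 and 72.4 CPM in Infertile heifers, 15.1, 16.8, 20.5, 22.9 and 34.1 CPM in Sub-fertile heifers, and 27.8, 32.5, 35.8, 41.8 and 60.7 CPM in High-fertile heifers. In 4 of 5 Sub-fertile heifers FGFR1 lay below every High-fertile heifer, and Sub-fertile replicate 4 lay within their range. The mean was 21.9 ± 7.46 CPM in Sub-fertile heifers and 39.7 ± 12.8 CPM in High-fertile heifers (SD, n = 5 each), a log2 fold change of -0.86 ± 0.414 (95% interval -1.74 to 0.02; edgeR adjusted p = 0.36). It was -0.15 with the library set as a covariate (edgeR adjusted p = 1) and -0.49 in the 8-library set alone, and 3 of the 4 low Sub-fertile libraries were of the 5-library set. Smooth muscle markers moved with it: all 10 were at lower fitted levels in Sub-fertile heifers (median log2 fold change -1.06, against 0.01 over all genes). So were all 10 endothelial markers (median -0.44), 8 of 10 leukocyte markers (median -0.41) and 10 of 12 stromal fibroblast markers (median -0.18). The part of any of these in the FGFR1 value was not tested. In bulk tissue, fewer cells of a type and less RNA per cell cannot be told apart. Infertile against High-fertile gave -0.22 ± 0.411, between -0.69 without Infertile replicate 1, which had the most FGFR1, and -0.0014 without Infertile replicate 5. The library set as a covariate gave 0.021, and the 8-library set alone 0.47.

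FGFR2, which binds FGF7 and FGF10, was at 30.0, 35.7, 57.1, 193 and 206 CPM in Infertile heifers, 28.0, 37.1, 39.0, 68.6 and 68.7 CPM in Sub-fertile heifers, and 30.6, 31.1, 64.0, 101 and 112 CPM in High-fertile heifers. Infertile replicates 1 and 2 stood far above the other 13 libraries, while the lowest values of the 3 classes lay between 28.0 and 30.6 CPM. The means were 104 ± 87.4 CPM in Infertile, 48.3 ± 19.1 CPM in Sub-fertile heifers and 67.6 ± 37.9 CPM in High-fertile heifers (SD, n = 5 each). The log2 fold change was 1.11 ± 0.557 for Infertile against Sub-fertile (95% interval -0.08 to 2.30; edgeR adjusted p = 0.998), 0.63 ± 0.553 for Infertile against High-fertile and -0.49 ± 0.552 for Sub-fertile against High-fertile. Without Infertile replicate 1 the first was 0.71 and the second 0.23. All 10 smooth muscle markers were at higher fitted levels in Infertile than in Sub-fertile heifers (median log2 fold change 1.04, against 0.03 over all genes). So were all 7 tested ciliated markers (median 0.53), 10 of 12 epithelial markers (median 0.10) and 8 of 10 leukocyte markers (median 0.15). Of stromal fibroblast markers 7 of 12 were higher (median 0.01), and 7 of 10 endothelial markers were lower (median -0.05). The part of any of these in the FGFR2 value was not tested.

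FGFR3, a receptor that FGF9 binds well, was at 1.51, 1.56, 2.70, 3.13 and 11.6 CPM in Infertile heifers, 1.00, 1.02, 1.15, 4.41 and 5.26 CPM in Sub-fertile heifers, and 1.67, 2.67, 2.79, 2.98 and 3.18 CPM in High-fertile heifers. Sub-fertile heifers formed a low group of 3 and a high group of 2, on either side of the High-fertile range. The log2 fold change for Infertile against High-fertile was 0.63 ± 0.611, and -0.25 without Infertile replicate 2. For Infertile against Sub-fertile it was 0.67 ± 0.612, and -0.21 without that library. For Sub-fertile against High-fertile it was -0.04 ± 0.610, and 0.79 with the library set as a covariate (edgeR adjusted p = 1).

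FGFR4, known best as a receptor of liver, was almost silent except in 1 heifer. It had 0.255, 0.453, 0.503, 0.545 and 8.98 CPM in Infertile heifers, 0.0455, 0.197, 0.455, 0.718 and 0.783 CPM in Sub-fertile heifers, and 0.247, 0.357, 0.478, 0.570 and 0.615 CPM in High-fertile heifers. Infertile replicate 2 had 422 counts and the other 14 libraries 2 to 31. The fitted log2 fold changes of 2.24 ± 0.940 against High-fertile (edgeR adjusted p = 0.443) and 2.29 ± 0.946 against Sub-fertile heifers (edgeR adjusted p = 0.998) therefore rested on that animal. Without it they were -0.04 and 0.01. With the library set as a covariate the first was 0.66. The biological coefficient of variation of FGFR4 was 94.2%, at the 97.3 percentile of the genes tested. Those of FGFR3 (66.0%) and FGFR2 (59.0%) followed, and those of the ligands, FGFR1 and MET were 33.1% to 46.7%.

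**Figure D2:**
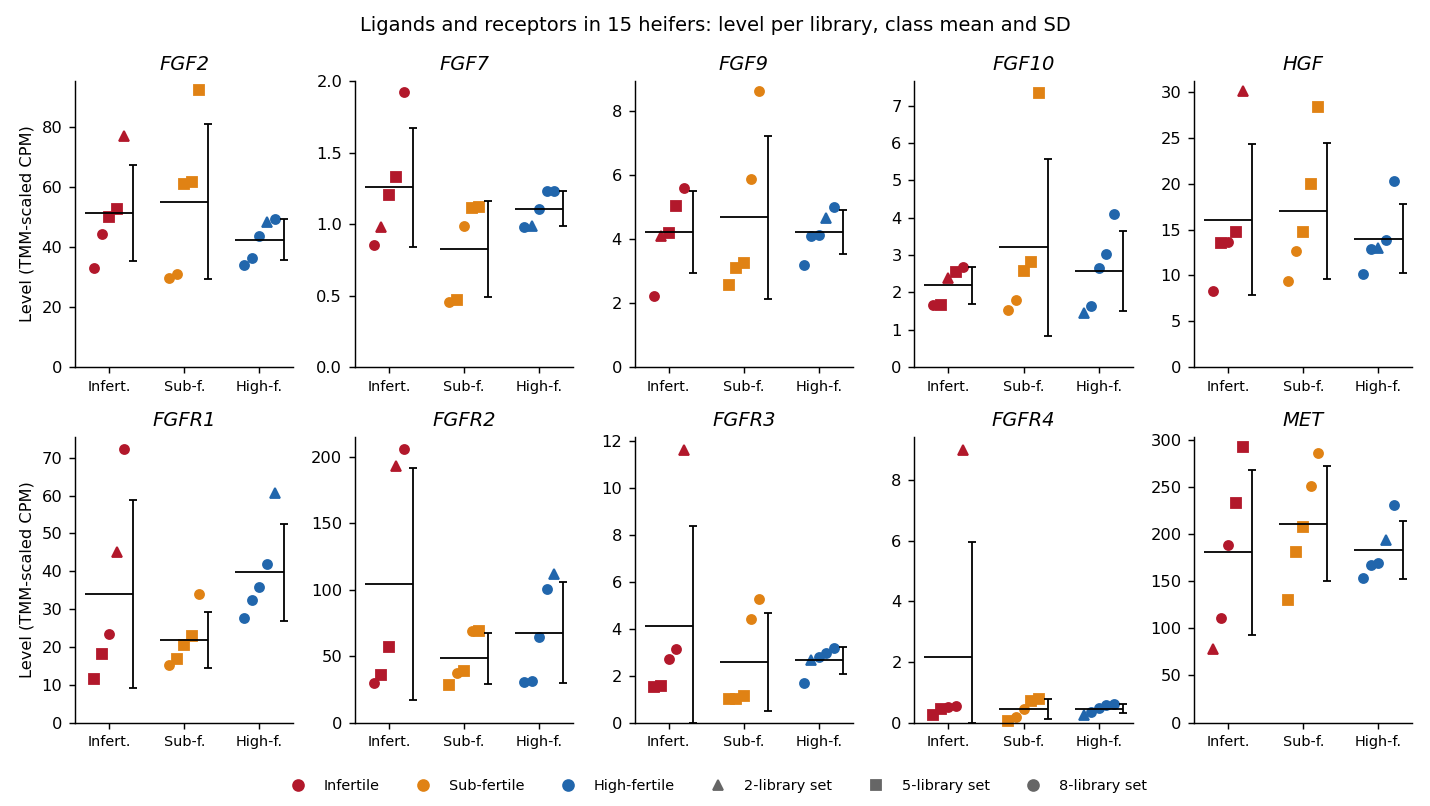
Level of each gene (y axis, TMM-scaled CPM, linear from 0) in Infertile, Sub-fertile and High-fertile heifers; each point is 1 library, its shape gives the library set, and bars give the class mean and SD (n = 5 each, the SD bar cut at 0). Classes overlap for every gene, and the single high point of FGFR4, at 8.98 CPM, is Infertile replicate 2.

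Ratios within a library, which do not depend on its scaling, likewise passed no test between classes. FGFR2 reads were 1.29 to 4.28 times FGFR1 reads in Infertile, 1.66 to 2.99 times in Sub-fertile and 0.942 to 2.81 times in High-fertile heifers. The mean log2 ratio was 1.45 ± 0.647 in Infertile and 0.61 ± 0.618 in High-fertile heifers (SD, n = 5 each; exact two-sided permutation p = 0.0794, adjusted p = 0.476 over 9 tests). MET reads outnumbered HGF reads by 2.61- to 21.7-fold in Infertile, 4.60- to 26.8-fold in Sub-fertile and 7.55- to 18.0-fold in High-fertile heifers, lowest in Infertile replicate 2. FGF7 reads were 0.321 to 1.16 times FGF10 reads in Infertile, 0.0657 to 0.553 times in Sub-fertile and 0.272 to 0.749 times in High-fertile heifers. Adjusted over the 9 tests, p ran from 0.476 to 0.936, and a single difference at the smallest exact p of 0.00794 would have reached 0.0714.

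Among 8 pairs of genes examined across the 15 heifers, only FGFR1 with FGFR2 passed an adjusted p of 0.05. Their log2 CPM had a Pearson r of 0.762 (permutation p = 0.00087, adjusted p = 0.00696) and a Spearman rho of 0.696 (permutation p = 0.00533, adjusted p = 0.0426). Without the 2 libraries farthest from the median of FGFR1, r was 0.681 (permutation p = 0.0104, 0.0835 adjusted), and within the 8-library set 0.799 (exact permutation p = 0.0176, 0.14 adjusted). No pair of a ligand with its receptor passed. FGF7 and FGFR2 had r = 0.482 and rho = 0.382 (permutation p = 0.0664 and 0.16, adjusted p = 0.153 and 0.256), and FGF10 and FGFR2 had r = -0.43 and rho = -0.554 (permutation p = 0.108 and 0.0352, adjusted p = 0.173 and 0.141). For HGF and MET r was -0.47 and rho -0.393 (permutation p = 0.0763 and 0.148, adjusted p = 0.153 and 0.256), and r was 0.1 without the 2 libraries farthest from the median of HGF.

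Levels of the 10 genes were also set beside 6 lists of cell type markers, which gave 60 relations over the 15 libraries. FGFR2 and FGFR1 rose with the mean log2 CPM of smooth muscle markers. For FGFR2 r was 0.804 and rho 0.857 (permutation p = 0.00031 and 0.00013, adjusted p = 0.00825 and 0.0045 over 60). Infertile replicate 1, with 26520 CPM of smooth muscle markers in sum, had 206 CPM of FGFR2, and Infertile replicate 5, with 645 CPM, had 35.7 CPM. Infertile replicate 2 departed from the relation, with 193 CPM of FGFR2 at 2726 CPM of markers. For FGFR1 r was 0.793 and rho 0.779 (permutation p = 0.00041 and 0.00105, adjusted p = 0.00825 and 0.0189). Without the 2 libraries farthest from the median of the markers, r was 0.684 for FGFR2 and 0.637 for FGFR1 (permutation p = 0.00794 and 0.0217, 0.159 and 0.193 adjusted). Within the 8-library set r was 0.95 and 0.83 (exact permutation p = 0.000347 and 0.00771, 0.0149 and 0.102 adjusted).

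FGF2 and FGF10 were high where epithelial markers were low. For FGF2 r was -0.778 and rho -0.771 (permutation p = 0.00054 and 0.00126, adjusted p = 0.00825 and 0.0189). Within the 8-library set r was -0.946 (exact permutation p = 0.000496, 0.0149 adjusted), and without the 2 farthest libraries -0.557 (permutation p = 0.0487, 0.265 adjusted). For FGF10 r was -0.812 and rho -0.632 (permutation p = 0.00055 and 0.0135, adjusted p = 0.00825 and 0.116). Its r was -0.527 without the 2 farthest libraries (permutation p = 0.0648, 0.29 adjusted) and -0.592 within the 8-library set (exact permutation p = 0.122, 0.407 adjusted). Without the 2 farthest libraries neither FGF2 nor FGF10 passed. Sub-fertile replicate 1, with the lowest epithelial sum of the study (653 CPM), had the most FGF2 and FGF10.

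FGF9 and FGFR3 instead followed epithelial markers by rank. For FGF9 rho was 0.836 and r 0.668 (permutation p = 0.00015 and 0.0073, adjusted p = 0.0045 and 0.0626). Its r was 0.75 without the 2 farthest libraries (permutation p = 0.00233) and 0.689 within the 8-library set (exact permutation p = 0.0557). For FGFR3 rho was 0.714 and r 0.633 (permutation p = 0.0037 and 0.0126, adjusted p = 0.037 and 0.0843), and r was 0.616 without the 2 farthest libraries and 0.837 within the 8-library set. MET ran against stromal markers, with r of -0.695 and rho of -0.725 (permutation p = 0.00394 and 0.00319, adjusted p = 0.0473 and 0.037), but r was only -0.383 within the 8-library set (exact permutation p = 0.344). HGF had r of 0.662 and rho of 0.579 with stromal markers (permutation p = 0.00651 and 0.026, adjusted p = 0.0626 and 0.156), which missed the threshold. Its r was 0.821 within the 8-library set and 0.737 without the 2 farthest libraries. FGF10 with stromal markers missed it too, at r of 0.641 (permutation p = 0.009, adjusted p = 0.0675) and rho of 0.564 (adjusted p = 0.166). So did MET with epithelial markers, at r of 0.42 (permutation p = 0.121, adjusted p = 0.453) and rho of 0.546 (adjusted p = 0.189). The smooth muscle, epithelial and stromal shares of a biopsy were not measured apart from these transcripts.

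**Figure D3:**
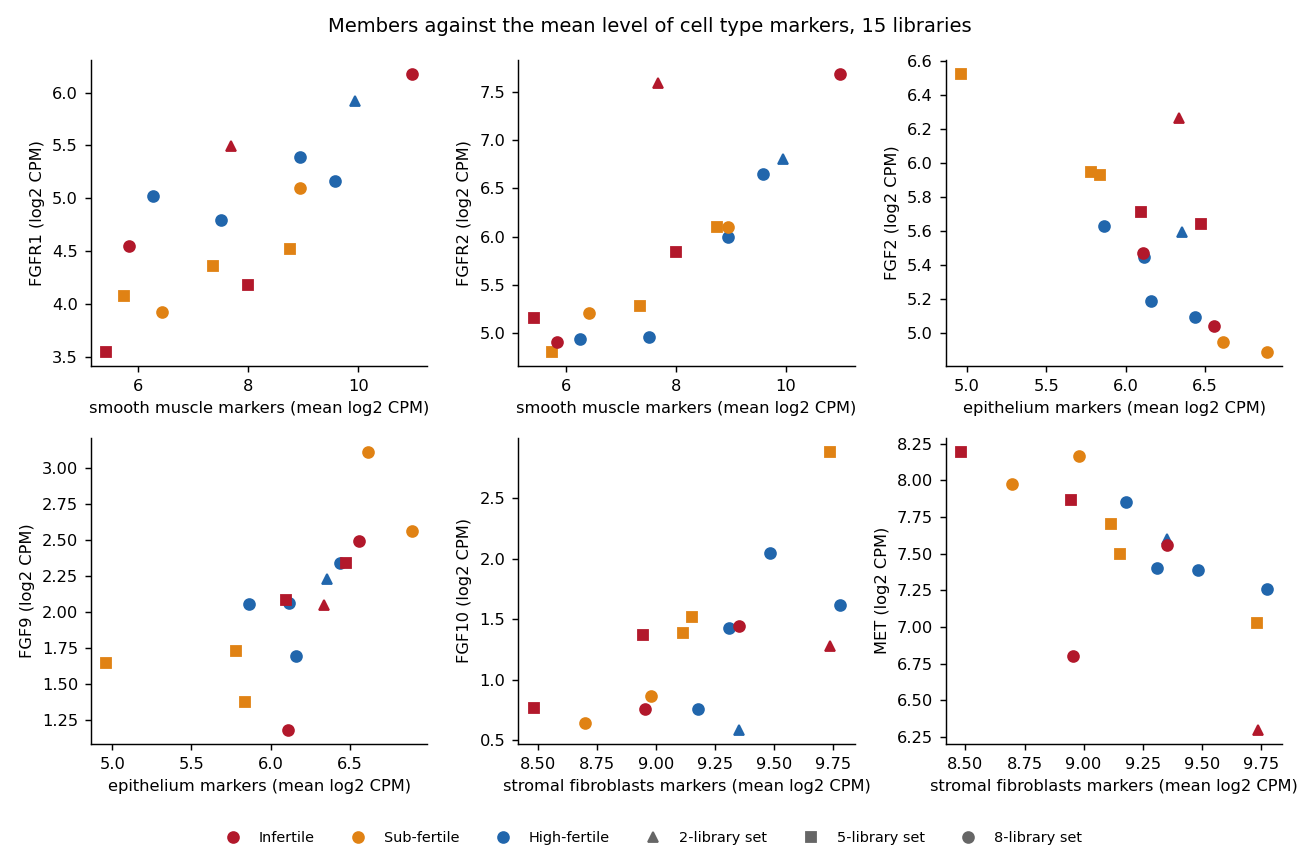
Log2 CPM of 6 genes (y axes) against the mean log2 CPM of smooth muscle, epithelial or stromal fibroblast markers (x axes) in 15 libraries; colour gives the class and shape the library set. FGFR1 and FGFR2 climb with smooth muscle markers (r = 0.793 and 0.804) and FGF2 falls with epithelial markers (r = -0.778), with libraries of each class along the slope.

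Between the 5-library and 8-library sets, with class in the edgeR model, 2 of 10 genes passed, FGF2 and FGFR3, where 30.7% of all genes did. The same 2 genes did not overlap between these sets, as 23.3% of all genes did not. The sets were drawn from counts of these same libraries, so a p between them is not that of groups fixed beforehand. FGF2 was at 50.0 to 92.1 CPM in the 5-library set and 29.6 to 49.5 CPM in the 8-library set, a log2 fold change of 0.78 ± 0.227 (edgeR adjusted p = 0.0199), where 13.1% of all genes were called higher. FGFR3 was at 1.00 to 1.56 CPM in the 5-library set and 1.67 to 5.26 CPM in the 8-library set, a log2 fold change of -1.80 ± 0.325 (edgeR adjusted p = 0.00114), where 17.6% of all genes were called lower. Summed epithelial markers were at 653 to 1863 CPM in the 5-library set and 995 to 1872 CPM in the 8-library set. Their mean log2 CPM was 4.961, 5.779, 5.836, 6.099 and 6.476 in the 5-library set. In the 8-library set it was 5.864, 6.108, 6.115, 6.161, 6.435, 6.559, 6.612 and 6.892. The part of epithelial markers in the FGF2 and FGFR3 values was not tested. FGFR1, at 11.6 to 22.9 CPM in the 5-library set and 15.1 to 72.4 CPM in the 8-library set, missed the threshold (log2 fold change -0.90 ± 0.380; edgeR adjusted p = 0.0962). The FGFR3 call held with each library left out in turn (-1.99 to -1.63). That of FGF2 ended without Sub-fertile replicate 3 (log2 fold change 0.62, adjusted p = 0.0906) or Sub-fertile replicate 4 (0.64, adjusted p = 0.0943). The 3 low Sub-fertile values of FGFR3 were the 3 Sub-fertile libraries of the 5-library set. Between the 2-library and 8-library sets 0 of 10 genes passed in edgeR, where 4.56% of all genes did.

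**Figure D4:**
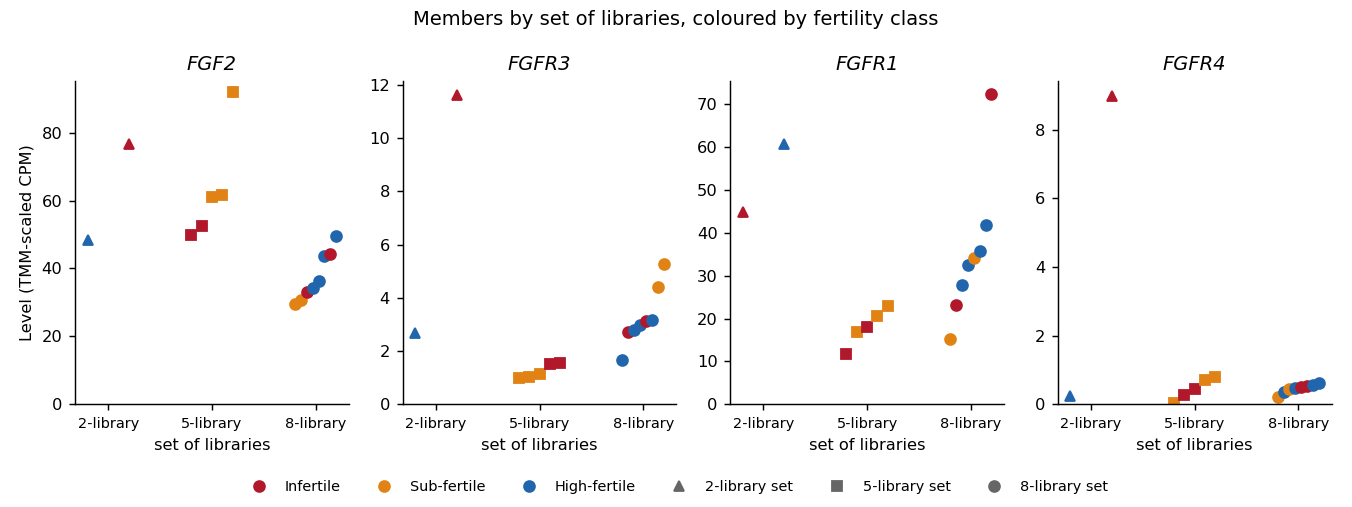
Level (y axis, TMM-scaled CPM, linear from 0) of FGF2, FGFR3, FGFR1 and FGFR4 in the 2-, 5- and 8-library sets, with each library coloured by fertility class. The 5-library set has FGF2 at 50.0 CPM or more and FGFR3 at 1.56 CPM or less, and holds Sub-fertile and Infertile heifers only.

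The rest of the pathway showed no call over all genes either. Of 22 adaptors and kinases that pass the FGF or MET signal inward, 6 were higher and 1 lower in Sub-fertile than in High-fertile heifers at an unadjusted p under 0.05. Over all genes 6.58% were higher and 7.14% lower at that level. For Infertile against High-fertile 0 of the 22 were at that level, where 11% of all genes were, and for Infertile against Sub-fertile 0, where 2.63% of all genes were. FRS2, the docking protein of FGF receptors, was at 115 ± 18.0 CPM in Sub-fertile heifers and 88.8 ± 11.3 CPM in High-fertile heifers (SD, n = 5 each; log2 fold change 0.37 ± 0.146, edgeR adjusted p = 0.36). The GTPase NRAS was at 119 ± 16.5 CPM in Sub-fertile heifers, against 93.8 ± 3.83 CPM in High-fertile heifers. The kinase BRAF was at 109 ± 14.8 CPM in Sub-fertile heifers, against 85.6 ± 5.62 CPM in High-fertile heifers (edgeR adjusted p = 0.36 for both). NRAS did not overlap between Sub-fertile (101 to 134 CPM) and High-fertile libraries (90.2 to 99.8 CPM), and neither did 5.07% of all genes. GPC1, a heparan sulfate proteoglycan, did not overlap there either, at 36.59 to 106.3 CPM in Sub-fertile and 106.8 to 114.6 CPM in High-fertile libraries. Its log2 fold change was -0.77 ± 0.373 (edgeR adjusted p = 0.362).

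Feedback inhibitors and target genes of this signalling, among them the Sprouty, Spred and ETV genes, were at lower fitted levels in Sub-fertile than in High-fertile heifers in 17 of 19 cases. Their median log2 fold change was -0.17, against 0.01 over all genes. At an unadjusted p under 0.05 were 0 of 19, where 13.7% of all genes were. The 19 also count SPINT1, which is listed under HGF activation as well. For Infertile against High-fertile 13 of 19 were at higher fitted levels, with a median of 0.17 against 0.04 over all genes. There 1 of 19 was at an unadjusted p under 0.05, where 11% of all genes were. For Infertile against Sub-fertile, which shares the Sub-fertile libraries, 17 of 19 were at higher fitted levels, with a median of 0.28 against 0.03 over all genes. Of these 19 genes 2 were at an unadjusted p under 0.05, where 2.63% of all genes were. ETV4, a transcription factor induced by FGF signalling, was at 4.82 ± 5.94 CPM (1.81 to 15.4 CPM) in Infertile and 1.51 ± 0.757 CPM (0.862 to 2.66 CPM) in Sub-fertile heifers (log2 fold change 1.67 ± 0.593; edgeR adjusted p = 0.998). The Infertile SD of ETV4 exceeded its mean, which rested in large part on the library at 15.4 CPM. The fold change without that library is not given here. SPRY4, a Sprouty inhibitor, was at 20.9 ± 10.55 CPM in Infertile and 11.4 ± 3.95 CPM in Sub-fertile heifers (edgeR adjusted p = 0.998). SPRY3 was at 6.53 ± 2.95 CPM in Infertile and 3.30 ± 1.25 CPM in High-fertile heifers (edgeR adjusted p = 0.439).

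Among 19 tested genes of HGF activation and MET partners, 14 were at lower fitted levels in Infertile and 17 in Sub-fertile than in High-fertile heifers, with medians of -0.19 and -0.27 against 0.04 and 0.01 over all genes. MST1R, the receptor of macrophage-stimulating protein and nearest relative of MET, had the smallest p. At an unadjusted p under 0.05 were 1 of 19 for Infertile against High-fertile, where 11% of all genes were. For Sub-fertile against High-fertile 1 of 19 was, where 13.7% of all genes were. That gene was MST1R both times, in comparisons that share the High-fertile libraries. MST1R was at 4.91 ± 2.08 CPM (2.89 to 8.29 CPM) in Infertile, 6.34 ± 1.56 CPM (4.76 to 8.23 CPM) in Sub-fertile heifers and 11.4 ± 5.99 CPM (7.08 to 21.9 CPM) in High-fertile animals. The log2 fold change was -1.21 ± 0.339 for Infertile (edgeR adjusted p = 0.435) and -0.84 ± 0.336 for Sub-fertile against High-fertile (edgeR adjusted p = 0.36). PLAU, urokinase, which can activate HGF, was at 11.2 ± 3.63 CPM in Infertile and 7.87 ± 0.898 CPM in Sub-fertile heifers (edgeR adjusted p = 0.998). It was the 1 of 19 at an unadjusted p under 0.05 in that comparison, where 2.63% of all genes were.

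Heparan sulfate genes were split evenly for Infertile against High-fertile heifers, with 13 of 26 at lower fitted levels, and 20 of 26 were so for Sub-fertile against High-fertile, with a median of -0.13. The only one at an unadjusted p under 0.05 in any comparison was NDST2, a sulfotransferase of heparan sulfate, at 67.5 ± 7.76 CPM in Infertile heifers and 81.0 ± 8.07 CPM in High-fertile ones (a log2 fold change of -0.26 ± 0.0995; edgeR adjusted p = 0.439). Co-receptors, decoys and carriers had 1 of 10 at that level, FGFBP3, a carrier that frees FGFs from the matrix. It was low, at 0.163 ± 0.0528 CPM in Infertile and 0.357 ± 0.192 CPM in High-fertile heifers (edgeR adjusted p = 0.45). The 2 classes overlapped, at 0.102 to 0.234 CPM in Infertile and 0.0794 to 0.570 CPM in High-fertile heifers. Of 18 other FGF genes 8 passed the filter, and 1 of the 8, FGF13, was at that level, for Infertile against High-fertile. The calls of NDST2, FGFBP3 and FGF13 were all in that comparison, where 11% of all genes were at that level. For Sub-fertile against High-fertile 0 genes of these lists were, where 13.7% of all genes were. For Infertile against Sub-fertile 0 were, where 2.63% of all genes were.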

How the data were processed

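Per the labels' protocols, RNA came from RNeasy columns and libraries from Illumina's stranded TruSeq mRNA kit. Per the submitters' processing notes, the tools were FastQC, Subread, featureCounts and edgeR, and the build UMD3.1. The sources used here give no version, no strand setting and no rule for reads that map more than once. The authors deposited 1 whole read count per gene and library, and these counts were tested. The authors' deposited FPKM values served to compare genes with each other and to recover gene lengths.

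The fit used edgeR 4.0.16 in R 4.3.3: filterByExpr by class, TMM factors, and 1 quasi-likelihood model with a mean per class over 15 libraries (12 residual degrees of freedom, robust estimation, two-sided). Adjusted p are Benjamini-Hochberg values over 19962 genes, with a threshold of 0.05, and the fitting was tested on simulated data. Log2 CPM used a prior count of 2. Fold changes carry SE and levels SD. Ratios used counts with 0.5 added, and correlations 100000 resamples, or all orders for 8 libraries. Alternatives were RLE and library size scaling, no filter, DESeq2 1.42.0, limma-voom 3.58.1, only the libraries compared, the library set as a covariate, only the 8-library set, no 2-library set, and each library left out. Library sets came from average-linkage clustering of pseudogene and ribosomal RNA counts without the class, cut at a preset number of 3 sets.

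The members, lists and tests were chosen with earlier results of these data known, and the marker relations after the data had been seen. Genes named from each list are those among its 3 smallest p per comparison that were at an unadjusted p under 0.05. GPC1 is an exception, named for its lack of overlap. The most alike genes are the 2 with a symbol and the highest Spearman rho. No coordinates are given, since no annotation of the files' build was used here, and no sequence was used here. Symbols were matched to ARS-UCD2.0 for names and neighbours alone.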

Additional observations from a re-analysis of the deposited data

Results flagged for a closer look

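In 30 groups of 5 libraries (10 genes in 3 classes), 3 held a library far from the other 4 of its class by Dixon's test. That test flags about 1 group in 20 where values are normally distributed. Whether these CPM are was not tested, and the groups share libraries. FGFR4 was at 8.98 CPM in Infertile replicate 2, against 0.255 to 0.545 CPM in the other 4 Infertile libraries. FGFR3 was at 11.6 CPM in the same library, against 1.51 to 3.13 CPM. FGF10 was at 7.34 CPM in Sub-fertile replicate 1, against 1.52 to 2.83 CPM in the other 4 Sub-fertile libraries. Infertile replicate 2 also had the highest stromal marker sum of the study (40220 CPM) and, like High-fertile replicate 1, no RN18S1 count, and Sub-fertile replicate 1 the lowest epithelial marker sum (653 CPM). The part of these in the flagged values was not tested.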

How the results depend on the processing

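Over 570 fold changes of the 10 genes under the alternatives, 0 of the 567 with an adjusted p passed 0.05, 514 kept their direction and 56 reversed it. With the library set as a covariate, Sub-fertile against High-fertile gave -0.054 for FGF2, -0.16 for FGF10, 0.23 for FGFR2, 0.79 for FGFR3 and 0.29 for FGFR4, and Infertile against High-fertile gave -0.076 for FGF2, 0.021 for FGFR1 and -0.14 for HGF. In the 8-library set alone, Sub-fertile against High-fertile gave -0.45 for FGF2, -0.79 for FGF10, 0.86 for FGFR3 and -0.39 for HGF. There Infertile against High-fertile gave -0.092 for FGF2, -0.085 for FGF9, 0.47 for FGFR1 and -0.39 for HGF, and Infertile against Sub-fertile gave 0.36 for FGF2, 0.39 for FGF10 and -0.73 for FGFR3. Without the 2-library set, Infertile against High-fertile gave -0.25 for FGFR3, -0.19 for FGFR4, -0.18 for HGF and 0.20 for MET, and Infertile against Sub-fertile gave -0.21 for FGFR3. With limma-voom, FGF9 was at -0.047 for Infertile against High-fertile. The cause of each reversal was not tested.

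Leaving out 1 library at a time gave, for Infertile against High-fertile, -0.020 to 0.31 for FGF7, -0.11 to 0.16 for FGF9, -0.25 to 0.84 for FGFR3, -0.044 to 2.52 for FGFR4, -0.16 to 0.37 for HGF and -0.26 to 0.17 for MET. For Sub-fertile against High-fertile it gave -0.19 to 0.31 for FGF9, -0.24 to 0.54 for FGF10, -0.48 to 0.16 for FGFR3 and -0.37 to 0.23 for FGFR4. For Infertile against Sub-fertile it gave -0.29 to 0.16 for FGF2, -0.30 to 0.20 for FGF9, -0.74 to 0.0057 for FGF10, -0.21 to 1.12 for FGFR3 and -0.44 to 0.18 for HGF.

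Genes past an adjusted p of 0.05 numbered 34, 18 and 11 with DESeq2 (Infertile against High-fertile, Sub-fertile against High-fertile, Infertile against Sub-fertile) and 1, 0 and 1 with limma-voom. Sub-fertile against High-fertile had 3 without the 2-library set and 0 to 3 with 1 library left out, the highest without High-fertile replicate 1. Genes at an unadjusted p under 0.05 numbered 2738 for Sub-fertile against High-fertile, but 4535 in the 10 libraries compared, 501 with the set as a covariate, 1528 in the 8-library set and 1120 to 4678 with 1 library left out. For Infertile against High-fertile they numbered 2201, but 904 in the 8-library set and 1287 to 3346 with 1 library left out. For Infertile against Sub-fertile they numbered 525, but 871 with no filter, 320 with limma-voom, 307 in the 10 libraries compared, 349 with the set as a covariate, 969 in the 8-library set, 306 without the 2-library set and 314 to 1006 with 1 library left out.

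Of the 10 genes, Sub-fertile against High-fertile had 1 at an unadjusted p under 0.05, FGFR1, with library size scaling (2763 of all genes), DESeq2 (3310) or the 10 libraries compared (4535). It had 1, FGFR3, with the set as a covariate (501 of all genes), 3 (FGF2, FGFR3 and MET) in the 8-library set (1528), and 0 to 1 with 1 library left out. Infertile against High-fertile had 0 with DESeq2 (2562 of all genes), which gave FGFR4 no p, limma-voom (2057), the 8-library set (904) or no 2-library set (2631). With the set as a covariate (1529 of all genes) its 1 gene was FGFR3 (log2 fold change 0.92) in place of FGFR4 (0.66). It had 0 to 1 with 1 library left out. Infertile against Sub-fertile had 0 with limma-voom (320 of all genes), the 10 libraries compared (307), the set as a covariate (349) or no 2-library set (306). Its 1 gene was FGFR2 with DESeq2 (605 of all genes) and MET in the 8-library set (969). It had 0 to 3 with 1 library left out.

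In the 8-library set the difference in log2 ratio was -0.22 for FGFR2 over FGFR1 (Infertile against Sub-fertile), and for MET over HGF 0.080 (Infertile against High-fertile) and 0.94 (Sub-fertile against High-fertile). With 1 library left out, MET over HGF ran from -0.50 to 0.26 for Infertile against High-fertile, -0.30 to 0.34 for Sub-fertile against High-fertile and -0.60 to 0.30 for Infertile against Sub-fertile. In the 8-library set r was 0.639 for FGF2 and FGFR1, 0.0866 for HGF and MET, 0.0944 for FGF7 and FGF10, and 0.565 for FGF2 and FGF7. Without the 2 farthest libraries r was 0.1 for HGF and MET and 0.0061 for FGF2 and FGF7. That of FGFR1 and FGFR2 lost its call both ways (0.681 and 0.799), where fewer libraries were tested. Marker relations, and set differences with a library left out, were added after the data had been seen. Of 14 marker alternatives with fewer libraries, 8 lost a Pearson call that held in all 15. Those of FGF9 and FGFR3, whose r had missed the threshold before, did not pass either. Only FGFR2 with smooth muscle markers and FGF2 with epithelial markers passed, both within the 8-library set.

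No paired analysis was possible because replicate numbers only name libraries in accession order. Depth limits FGFR4 and FGF7, with 2 to 31 counts outside Infertile replicate 2 and 18 to 92 counts.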

Other observations

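The genes most alike to each member by Spearman rho over the 15 libraries, picked from all tested genes with a symbol, were CDC7 (0.982) and STX2 (0.961) for FGF2, and LHFP (0.904) and RXRG (0.875) for FGF10. For FGFR1 they were TUBB6 and C2CD2 (0.971 each), and for FGFR2 UNC80 (0.961) and CDC42EP3 (0.957). RBM47 (0.943) and NCOA2 (0.918) were nearest to MET, PRDM1 and CYP7B1 (0.939 each) to HGF, and SAMD11 and ENDOV (0.946 each) to FGFR3. BCL2L14 (0.925) and OR51E1 (0.921) were nearest to FGF9, CD200R1L (0.893) and SMYD2 (0.864) to FGF7, and AQP11 (0.900) and VEGFA (0.882) to FGFR4. These are the highest values among all genes tested, chosen for being so, and each coefficient shares libraries and scaling with the others.

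FGF13, an intracellular relative of the FGFs that is not secreted, was at 15.3 ± 7.41 CPM (10.3 to 27.9 CPM) in Infertile and 8.96 ± 1.498 CPM (7.42 to 11.01 CPM) in High-fertile heifers. Its log2 fold change was 0.77 ± 0.272 (edgeR adjusted p = 0.435).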
